A study of Rattus norvegicus with 10 samples.

Results

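The rat major histocompatibility complex, called RT1, and the genes that load its molecules with peptides were compared between livers of EHBR and SD rats. The set held 40 of the 32883 genes in the files. All 31 genes with an RT1 symbol were taken, together with B2m, Tap1, Tap2, Tapbp, Psmb8, Psmb9, Psmb10, Cd74 and Ciita. By symbol, 21 of the RT1 genes were class I and 10 were class II, those whose symbol goes on with B, D or H. Of the 40 genes, 36 lie on chromosome 20, including 5 of the 9 processing genes.

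Poly(A) RNA was sequenced from livers of 5 EHBR males and 5 SD males, all 5 weeks old and numbered 1 to 5 in each strain. EHBR, the Eisai hyperbilirubinemic rat, is a mutant line derived from the SD (Sprague-Dawley) stock that lacks the canalicular export pump Mrp2, the product of Abcc2, and the SD rats served as controls. Breeding, housing and kinship of the animals are not given in the labels, and any other genetic difference between the strains cannot be told apart from the loss of Mrp2. Abcc2 itself had 10.1 to 17.6 TPM in EHBR samples and 59.98 to 270.6 TPM in SD samples.

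Class I molecules are a heavy chain paired with beta-2 microglobulin and show peptides from inside the cell to CD8 T cells and natural killer cells. RT1-A encodes the classical class I chains of the rat, and the CE, N, S, M and T24 series are class I genes outside it. Class II molecules are pairs of an alpha and a beta chain, RT1-B and RT1-D in the rat, and show peptides from endocytosed protein to CD4 T cells. In liver, class II is made mostly by Kupffer cells, dendritic cells and B cells, while class I is made by nearly every cell, hepatocytes included.

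Levels are given in TPM, which scales each sample to the same total and corrects for transcript length. Differences are in log2(TPM + 1), EHBR minus SD, from limma adjusted by Benjamini-Hochberg across 11083 genes, those that reached 1 TPM in 5 or more of all 10 samples. A difference is called where the adjusted p is below 0.05, and on this scale the change of low genes is understated. The filter kept 25 of the 40 members, 12 of class I, 5 of class II and 8 processing genes. The samples held 13.8 to 19.6 M reads assigned to genes.

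Several samples stood apart. In both strains, samples 4 and 5 differed from samples 1 to 3 across the genome, so values within each part are given below where the call of a member changes. EHBR sample 4 was the highest EHBR sample for 20 of the 25 tested members, against 24.3% of all tested genes. SD sample 1 was the highest SD sample for 16 of the 25, against 22.2% of all tested genes. Results that rest on these samples are given with and without them. RT1 genes are near-identical copies, and the authors' TPM is not a simple rescaling of their FPKM. Relative to the sample median, 7 of the 17 tested RT1 genes (41.2%) had a strain mean that moved by over 0.5 on the log2 scale between the units, against 5.76% of all tested genes. RT1-N2 is among these 7 through EHBR alone (-0.66). It was at 0 there in both units, so that shift comes from the centring and is no disagreement between units. The share over all tested genes can hold such genes too. The level of a single RT1 gene is therefore uncertain where the units disagree. Whether the strains' own RT1 sequences match the reference genome equally well was not tested.

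Of the 12 tested class I genes, 5 fell and 2 rose in EHBR. Across all tested genes, 5.45% were called, 1.63% lower and 3.82% higher. The lower genes were RT1-N2, RT1-CE5, RT1-CE4, RT1-N3 and RT1-A2, and the higher genes were RT1-CE7 and RT1-T24-4. In 5 of the 12 no EHBR value overlapped an SD value, against 8.47% of all tested genes, and 9 of the 12 had an unadjusted p below 0.05, against 20.9%. The median difference of the 12 genes was -0.24 on the log2 scale, beside 0.15 over all tested genes, a shift of the whole table that centring each sample on its median moved to -0.015. The class I counts were 2 higher and 5 lower after that centring too.

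RT1-N2, on the plus strand of chromosome 20 from 3146856 to 3150852 in the build rn6, was listed at 0 TPM in all 5 EHBR samples. The SD samples held 30.2, 47.1, 36.9, 27.1 and 37.6 TPM. Recovered read counts showed the same, with 0 reads in every EHBR sample and 739 to 1140 reads in the SD samples. A floor of 3 reads in each EHBR library is 0.0947 FPKM on average, against 25.6 ± 5.16 FPKM in SD (SD, n = 5). The level assigned to the rn6 model of RT1-N2 was thus at least 270.2-fold lower in EHBR. Whether the EHBR sequence of RT1-N2 matches that model was not tested. The limma difference, which depends on the pseudocount and is no bound, was -5.18 ± 0.15 (SE, adjusted p = 5.61e-09).

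RT1-CE5 and RT1-CE4 lie further along the chromosome on the minus strand, within a cluster of 5 CE genes whose annotated spans overlap. RT1-CE5, from 4892702 to 4896991, had 2.85, 1.76, 1.94, 1.86 and 1.76 TPM in EHBR samples 1 to 5, against 13.1, 17.9, 20.2, 10.4 and 14.9 TPM in SD samples 1 to 5. RT1-CE4, annotated from 4673658 to 4935887, had 2.71, 1.99, 2.84, 3.19 and 2.13 TPM in EHBR, against 9.76, 14.7, 14.4, 10.5 and 15.3 TPM in SD. Neither gene's strains overlapped. The differences were -2.40 ± 0.18 for RT1-CE5 (SE, limma adjusted p = 2.56e-05) and -1.95 ± 0.16 for RT1-CE4 (SE, limma adjusted p = 5.3e-05), and both were called in all 24 alternative settings. The third tested gene of the cluster went the other way. RT1-CE7, from 4694472 to 4896970, had 19.1, 20.7, 29.5, 26.8 and 20.1 TPM in EHBR, against 18.0, 7.5, 7.57, 9.79 and 8.0 TPM in SD. Every EHBR value was above every SD value, SD sample 1 by little. The difference was 1.17 ± 0.22 (SE, limma adjusted p = 0.01). It was 1.09 in samples 1 to 3 alone, where it was not called (adjusted p = 0.0991).

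Next to RT1-N2 on the plus strand lie RT1-N3, RT1-S3 and the T24 genes. RT1-N3, from 3167079 to 3170945, had 3.77, 4.39, 5.67, 6.76 and 3.78 TPM in EHBR, against 9.36, 13.5, 12.6, 8.35 and 9.75 TPM in SD, with no overlap. The difference was -1.0 ± 0.18 (SE, limma adjusted p = 0.00737), and -0.72 in samples 4 and 5 alone, where it was not called (adjusted p = 0.126). RT1-T24-4, from 3189473 to 3197457, had 42.6, 35.6, 43.4, 39.4 and 26.9 TPM in EHBR, against 31.0, 12.3, 15.5, 13.5 and 17.2 TPM in SD. In TPM only SD sample 1 reached into the EHBR range. In recovered reads SD sample 1 held 746 and SD sample 5 held 846, beside 404 to 786 in EHBR samples, so SD sample 1 was not alone there. The TPM difference of 1.08 ± 0.22 (SE, limma adjusted p = 0.0151) was 0.39 in FPKM, where it was not called (adjusted p = 0.407). In samples 1 to 3 alone it was 1.11 and in samples 4 and 5 alone 1.05, with adjusted p of 0.0734 and 0.0571. RT1-T24-3 had 4.77 to 6.89 TPM in EHBR and 5.38 to 11.9 TPM in SD and was not called in TPM (-0.55, adjusted p = 0.140). It was called lower in FPKM (-0.84, adjusted p = 0.0426).

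RT1-S3, from 3176107 to 3179818, was the most abundant class I gene. It had 229, 195, 222, 303 and 172 TPM in EHBR, against 341, 187, 264, 126 and 186 TPM in SD. The strains overlapped fully, and the difference was 0.08 with a 95% interval of -0.45 to 0.60 (limma adjusted p = 0.868). Its sign turned after median centring, after quantile normalization, and in both FPKM units. RT1-S3 made up 62.1% ± 2.3 of summed class I TPM in EHBR and 51.7% ± 6.1 in SD (SD, n = 5 each). RT1-N2 took 0% of that sum in EHBR samples and 9.0% ± 2.5 in SD samples. The sum over all 21 class I genes was 279.4 to 460.9 TPM in EHBR and 259.3 to 556.2 TPM in SD. These shares and sums leave out LOC103690108, which RefSeq now names RT1-CE2 and which is no member by symbol. It had 67.1 to 99.3 TPM in EHBR, against 37.1 TPM in SD sample 1 and at most 0.174 TPM in the other SD samples. The shares and sums therefore depend on the symbol rule.

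RT1-A1 and RT1-A2 are classical class I genes with overlapping spans on the plus strand. RT1-A2, from 5374985 to 5378539, had 27.9, 26.5, 31.4, 27.9 and 19.9 TPM in EHBR, against 53.3, 67.5, 72.3, 25.9 and 54.2 TPM in SD. SD sample 4 lay inside the EHBR range and the other SD samples above it. The difference of -0.94 ± 0.24 (SE, limma adjusted p = 0.0458) had the highest adjusted p of the 7 calls. It was lost when any single sample other than SD sample 4 was left out (limma adjusted p of 0.0726 to 0.104), while without SD sample 4 the adjusted p was 0.00183. In FPKM the difference was -0.34 and was not called (limma adjusted p = 0.432), and in voom on recovered reads it was -0.35 and was not called (adjusted p = 0.411). It was not called in samples 4 and 5 alone (-0.65, adjusted p = 0.250) or when no filter on low values was used (adjusted p = 0.0810). RT1-A1, from 5351605 to 5421098, had 15.3 to 27.6 TPM in EHBR and 10.8 to 21.3 TPM in SD (0.27, 95% interval -0.19 to 0.72, limma adjusted p = 0.472).

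The ratio of RT1-A2 to RT1-A1 within a sample separated the strains in TPM. It was 1.27, 1.74, 1.83, 1.01 and 1.30 in EHBR samples, and 2.50, 4.02, 3.93, 2.39 and 4.27 in SD samples. In recovered reads it was 0.977 to 1.26 in EHBR samples and 1.37 to 2.48 in SD samples. In both units SD samples 1 and 4 were the lowest of the SD samples. The ratio was chosen after the values were seen, and it has no test.

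The remaining tested class I genes were not called. RT1-CE10, the member closest to the chromosome's first base in rn6, had 6.16 to 11.8 TPM in EHBR and 3.05 to 7.89 TPM in SD (0.62, limma adjusted p = 0.175). It was called higher in samples 4 and 5 alone (1.32, adjusted p = 0.0436). RT1-M3-1, whose mouse counterpart presents formylated bacterial peptides, had 1.30 to 2.23 TPM in EHBR and 0.599 to 2.17 TPM in SD (0.09, limma adjusted p = 0.816), a sign that turned after median centring and quantile normalization and in upper-quartile FPKM.

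The 9 class I genes below the filter had at most 1.64 TPM in EHBR samples and at most 6.14 TPM in SD samples, and RT1-M4 was at 0 in every sample. Among them, RT1-T24-1 had 0.154 to 0.904 TPM in EHBR and 0.95 to 6.14 TPM in SD, without overlap. RT1-M6-1 had 0.0381 to 0.304 TPM in EHBR and 0.721 to 2.77 TPM in SD, also without overlap. RT1-M6-2 shares its span with RT1-M6-1 and had 0.199 to 0.612 TPM in EHBR and 0.740 to 2.69 TPM in SD. It had 1 recovered read in EHBR samples and none in SD samples, so its TPM has no support in the other unit. These 3 genes were called lower when no filter on low values was used (limma differences of -1.45 for RT1-T24-1, -1.12 for RT1-M6-1 and -1.01 for RT1-M6-2).

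**Figure D1:**
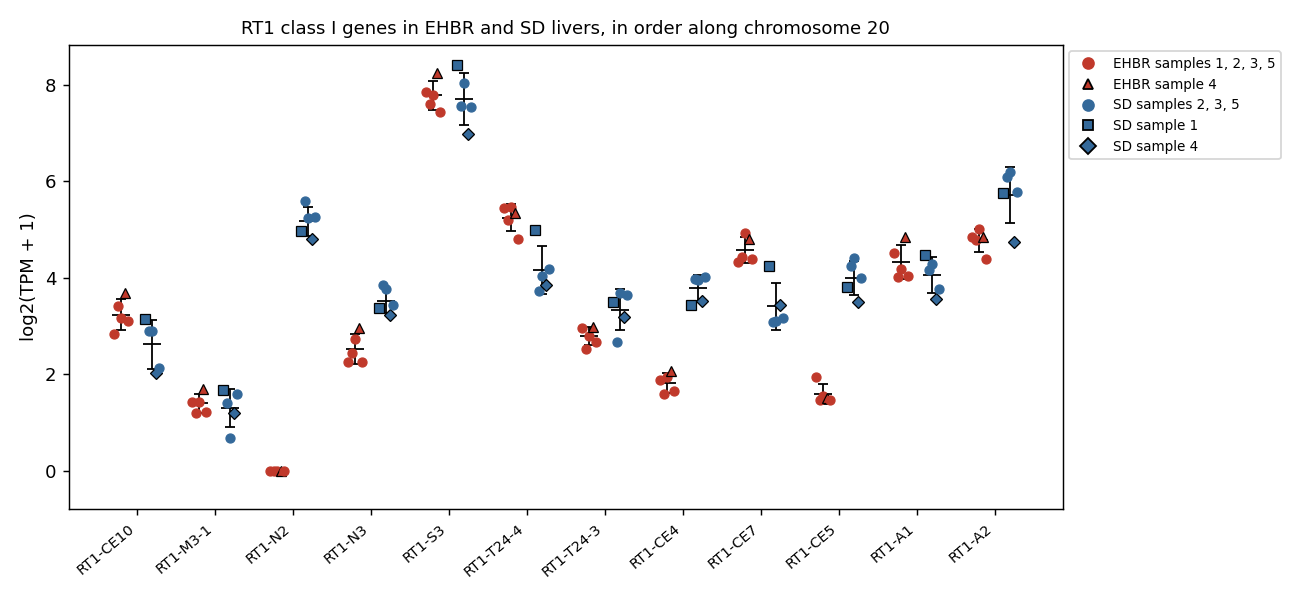
Level of the 12 tested RT1 class I genes in each sample, as log2(TPM + 1), with EHBR in red and SD in blue, genes in order along chromosome 20, and bars for the mean ± SD of 5 samples. RT1-N2 is at 0 in all EHBR samples, RT1-CE4, RT1-CE5 and RT1-N3 are lower in every EHBR sample than in any SD sample, and RT1-CE7 is higher.

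Promoter sequences are shown for 3 of the lower class I genes that carry classical class I motifs in this window, RT1-CE4, RT1-CE5 and RT1-A2, and for RT1-N2, which carries none of those searched. They are the 200 bases before the annotated start, from RefSeq on the build GRCr8, so their positions cannot be set beside the rn6 positions given above. Capitals mark the Y box (CTGATTGG), the CCAAT-type element of MHC promoters, and the kappa B site of class I promoters, in either orientation.
RT1-CE4 (chr20:3509157-3509356, minus strand): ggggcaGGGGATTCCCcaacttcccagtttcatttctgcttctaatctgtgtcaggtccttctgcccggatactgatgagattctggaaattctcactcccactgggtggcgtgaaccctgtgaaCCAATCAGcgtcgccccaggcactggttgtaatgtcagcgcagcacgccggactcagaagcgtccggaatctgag
RT1-CE5 (chr20:3484091-3484290, minus strand): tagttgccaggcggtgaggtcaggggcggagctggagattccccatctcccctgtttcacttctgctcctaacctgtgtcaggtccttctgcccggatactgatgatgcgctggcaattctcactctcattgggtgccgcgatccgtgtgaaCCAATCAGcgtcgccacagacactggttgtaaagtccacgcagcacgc
RT1-A2 (chr20:4872671-4872870, plus strand): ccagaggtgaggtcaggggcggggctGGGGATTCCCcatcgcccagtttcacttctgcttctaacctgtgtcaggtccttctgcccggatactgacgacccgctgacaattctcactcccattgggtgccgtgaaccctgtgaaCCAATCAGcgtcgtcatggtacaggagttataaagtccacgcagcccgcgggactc
RT1-N2 (chr20:2646130-2646329, plus strand): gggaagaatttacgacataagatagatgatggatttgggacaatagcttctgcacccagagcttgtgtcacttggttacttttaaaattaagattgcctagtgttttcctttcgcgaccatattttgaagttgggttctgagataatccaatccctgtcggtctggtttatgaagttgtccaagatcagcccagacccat

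A promoter entry was found for 35 of the 40 members, and the 250 bases before the start were searched on both strands. The Y box lay in 4 of 18 class I promoters (RT1-S3, RT1-CE5, RT1-CE4 and RT1-A2), against 3.19% of all 33469 promoters. In RT1-CE5, RT1-A2 and RT1-CE4 its nearest base was 41, 49 and 68 bases before the start. The kappa B site lay in RT1-CE10, RT1-CE4, RT1-A2 and RT1-A1, against 0.102% of all promoters. An interferon response element lay in 3 of 18 class I promoters (RT1-S2, RT1-N3 and RT1-S3), against 3.41% of all promoters. It also lay in 5 of 8 processing promoters (B2m, Psmb10, Tap2, Tap1 and Tapbp) and in 0 of 9 class II promoters. RT1-S3, RT1-A1 and RT1-CE10, which carry at least 1 of these motifs, were not called. The 5 processing genes with the interferon response element were not called either, and a match is a description of the letters only.

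None of the 5 tested class II genes was called in limma on TPM with strain as the only term, and voom on recovered reads called none either. At an unadjusted p below 0.05 there was 1, RT1-Bb, which was higher in EHBR. The median difference was 0.27 on the log2 scale and -0.12 without EHBR sample 4. That sample held several times the class II RNA of the other EHBR samples. Summed over the 10 class II genes, the EHBR samples had 52.6, 51.2, 72.0, 225.9 and 44.5 TPM and the SD samples 76.5, 66.7, 42.4, 33.5 and 55.8 TPM. Without EHBR sample 4 the EHBR sums of 44.5 to 72.0 TPM lay within the SD range. In these bulk samples, fewer cells of a type and less RNA per cell cannot be told apart.

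RT1-Bb, the beta chain of RT1-B, lies from 4039413 to 4049711. It had 9.13, 8.79, 12.2, 33.9 and 7.95 TPM in EHBR, against 9.28, 3.23, 2.44, 4.80 and 3.07 TPM in SD. Apart from SD sample 1, every SD sample was below every EHBR sample. The difference of 1.37 ± 0.39 missed the threshold (SE, limma adjusted p = 0.0693). It was 1.02 without EHBR sample 4 (adjusted p = 0.0921) and 1.62 without SD sample 1, where it was called (adjusted p = 0.0347). It was also called higher in limma with the replicate number as a block (adjusted p = 0.045) and with a term for samples 4 and 5 (adjusted p = 0.0383). Its partner RT1-Ba, the alpha chain, from 4066132 to 4070721, had 14.9, 14.4, 22.5, 63.8 and 12.4 TPM in EHBR, against 18.1, 15.5, 11.7, 5.68 and 14.8 TPM in SD (0.71 ± 0.42, SE, limma adjusted p = 0.351). The strains overlapped.

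The balance of the RT1-B chains was even across EHBR samples and uneven across SD samples. The ratio of RT1-Bb to RT1-Ba in TPM was 0.614, 0.611, 0.544, 0.531 and 0.639 in EHBR samples 1 to 5, and 0.512, 0.209, 0.209, 0.845 and 0.208 in SD samples 1 to 5. SD samples 2, 3 and 5 were near-equal and low, while SD sample 1 lay just under the EHBR range and SD sample 4 above it. In recovered reads the ratio was 1.31, 1.35, 1.37, 1.21 and 1.34 in EHBR, against 0.998, 0.459, 0.561, 1.63 and 0.455 in SD, with the same SD samples apart. EHBR sample 4, with the highest level of both chains, kept the ratio of its strain. For RT1-Db1 over RT1-Da the units differed. In TPM the ratio was 0.214 to 0.297 in EHBR and 0.239 to 0.362 in SD, and the strains overlapped. In recovered reads it was 0.478 to 0.559 in EHBR, against 0.558 in SD sample 1 and 0.352 to 0.407 in SD samples 2 to 5, which were all below every EHBR sample. These ratios were chosen after the values were seen and have no test.

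**Figure D2:**
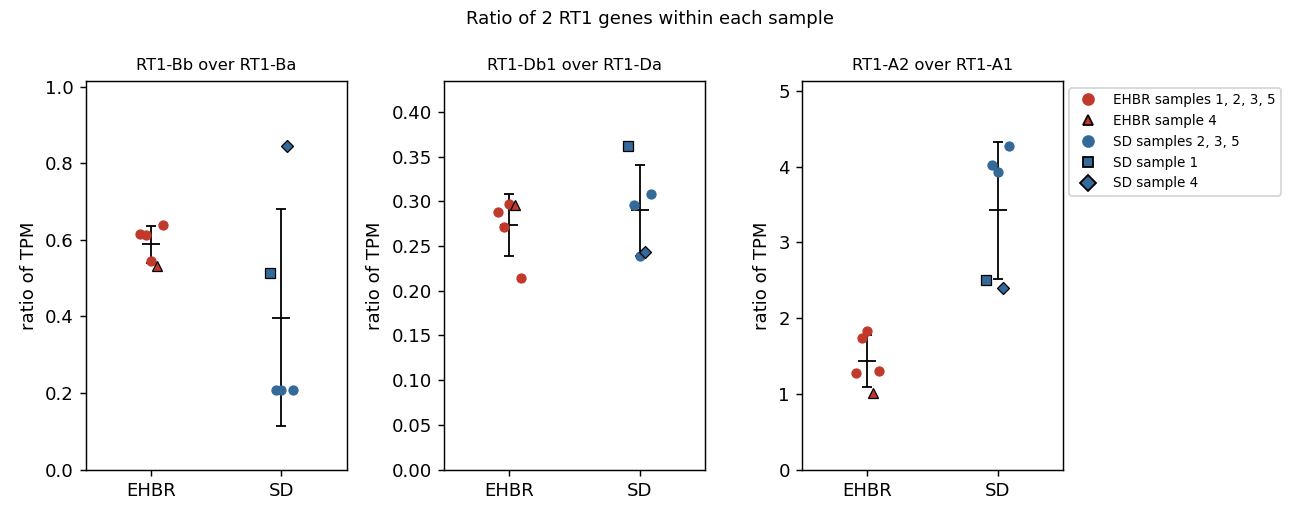
Ratio of TPM between gene pairs within each sample, for RT1-Bb over RT1-Ba, RT1-Db1 over RT1-Da and RT1-A2 over RT1-A1, with EHBR left of SD and bars for the mean ± SD of 5 samples. For RT1-Bb over RT1-Ba the EHBR samples sit between 0.531 and 0.639 while SD samples 2, 3 and 5 sit near 0.208, and for RT1-A2 over RT1-A1 SD samples 1 and 4 are the SD samples closest to EHBR.

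RT1-Da and RT1-Db1, the chains of RT1-D, did not differ beyond their spread. RT1-Da, from 4127644 to 4132616, had 21.7, 21.4, 28.1, 90.6 and 19.5 TPM in EHBR, against 32.0, 35.1, 20.6, 14.8 and 26.1 TPM in SD (0.27, 95% interval -0.58 to 1.12, limma adjusted p = 0.704). RT1-Db1, from 4087618 to 4097190, had 4.18 to 8.36 TPM in EHBR samples 1, 2, 3 and 5 and 26.8 TPM in EHBR sample 4, against 3.60 to 11.6 TPM in SD (0.18, limma adjusted p = 0.824). Without EHBR sample 4 both differences turned negative, at -0.12 for RT1-Da and -0.22 for RT1-Db1.

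RT1-DMb, the beta chain of the DM molecule that helps load peptide onto class II, lies from 3945601 to 3952846 and gave the widest spread. It had 0.356, 0.120, 0.0526, 9.65 and 0.129 TPM in EHBR, against 4.12, 1.69, 1.10, 4.32 and 2.55 TPM in SD. The EHBR samples other than sample 4 were all below every SD sample, and sample 4 was above all of them. The counts behind these values were 6, 2, 2, 186 and 2 reads in EHBR and 19 to 104 reads in SD. Over all samples the difference was -0.97 ± 0.59 (SE, limma adjusted p = 0.365). Without EHBR sample 4 it was -1.61 and was called lower (limma adjusted p = 0.00913). It was called lower in samples 1 to 3 alone too (-1.39, adjusted p = 0.0497), and was -0.33 in samples 4 and 5 alone. The other 5 class II genes, RT1-DMa, RT1-DOa, RT1-DOb, RT1-Ha and RT1-Db2, had at most 0.632 TPM in EHBR samples and 0.768 TPM in SD samples.

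The promoters of the RT1-B and RT1-D chains are shown because these 4 genes were high together in EHBR sample 4. They are the 150 bases before the start, from RefSeq on GRCr8, with capitals for the Y box and for the core of the X box, the element bound by the RFX complex in class II promoters.
RT1-Bb (chr20:4604119-4604268, minus strand): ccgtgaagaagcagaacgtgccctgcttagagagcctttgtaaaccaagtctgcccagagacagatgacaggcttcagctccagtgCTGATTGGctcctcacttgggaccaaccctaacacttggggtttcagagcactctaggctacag
RT1-Ba (chr20:4576907-4577056, plus strand): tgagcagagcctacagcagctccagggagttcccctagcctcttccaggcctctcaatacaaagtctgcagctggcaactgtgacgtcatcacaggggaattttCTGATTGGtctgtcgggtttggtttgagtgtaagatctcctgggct
RT1-Db1 (chr20:4560163-4560312, minus strand): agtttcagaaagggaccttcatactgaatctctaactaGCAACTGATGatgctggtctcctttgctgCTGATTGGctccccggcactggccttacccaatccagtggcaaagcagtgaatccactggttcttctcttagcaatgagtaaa
RT1-Da (chr20:4515265-4515414, plus strand): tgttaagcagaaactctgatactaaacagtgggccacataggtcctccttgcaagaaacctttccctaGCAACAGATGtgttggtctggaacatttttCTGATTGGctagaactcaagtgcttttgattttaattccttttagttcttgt

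The Y box lay in 7 of 9 class II promoters, against 3.19% of all promoters, and the X box core in 4 of 9 (RT1-Da, RT1-Db1, RT1-Db2 and RT1-DOb), against 0.108%. Between them lie 20 bases in RT1-Da and 19 bases in RT1-Db1. RT1-Bb and RT1-Ba hold no exact match to the X box core in this window. The class II promoters with a Y box include well-expressed genes and genes close to 0.

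Of the 8 tested processing genes, none was called in limma on TPM with strain as the only term, and voom on recovered reads called none. At an unadjusted p below 0.05 there were 3, Tap2 and Tapbp higher in EHBR and B2m lower. No gene of the 8 had strains without overlap. The median difference was 0.17 on the log2 scale and -0.18 without EHBR sample 4.

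Tap1 and Tap2 form the transporter that carries peptides into the endoplasmic reticulum, and Tapbp encodes tapasin, which holds class I to it. Tap2, from 3995544 to 4009587, had 1.75, 2.98, 2.65, 4.39 and 2.73 TPM in EHBR, against 2.04, 0.938, 0.749, 2.0 and 0.873 TPM in SD. SD samples 1 and 4 were above the lowest EHBR sample, and SD samples 2, 3 and 5 were below all EHBR samples. The difference was 0.76 ± 0.22 (SE, limma adjusted p = 0.0735), and it was called higher with a term for samples 4 and 5 (adjusted p = 0.0327). Tap1 had 17.3, 15.4, 17.1, 25.8 and 10.3 TPM in EHBR, against 25.4, 7.52, 9.73, 7.32 and 9.96 TPM in SD (0.58 ± 0.31, SE, limma adjusted p = 0.315). Here SD sample 1 alone reached into the EHBR range. Tapbp, from 5468078 to 5476193, had 40.7 to 60.6 TPM in EHBR and 25.8 to 48.9 TPM in SD (0.47 ± 0.17, SE, limma adjusted p = 0.133), and it was called higher without SD sample 1 (0.60, adjusted p = 0.0436).

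B2m, the light chain shared by all class I molecules, lies on chromosome 3 from 114087287 to 114093309. It was the most abundant member, with 979, 942, 1044, 1388 and 919 TPM in EHBR, against 1474, 1316, 1259.9, 1152 and 1161 TPM in SD. All EHBR samples but sample 4 were below every SD sample. The difference was -0.28 ± 0.13 (SE, limma adjusted p = 0.230). It was -0.45 in samples 1 to 3 alone, where it was called (limma adjusted p = 0.0246), and -0.034 in samples 4 and 5 alone.

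Psmb8, Psmb9 and Psmb10 encode the inducible catalytic subunits of the immunoproteasome, which cuts many of the peptides that class I binds. Psmb9 had 38.7, 35.4, 38.7, 117 and 22.9 TPM in EHBR, against 83.9, 38.8, 39.7, 25.3 and 38.5 TPM in SD. Psmb10, on chromosome 19, had 55.6, 55.5, 57.1, 181 and 58.0 TPM in EHBR, against 90.7, 55.7, 52.7, 70.8 and 70.2 TPM in SD. Psmb8 had 20.2 to 55.0 TPM in EHBR and 18.4 to 36.8 TPM in SD. EHBR sample 4 was the highest of all 10 samples for each of the 3 genes. The differences were 0.04 for Psmb9, 0.10 for Psmb10 and -0.00 for Psmb8, with limma adjusted p of 0.964, 0.871 and 0.999, and each sign turned under at least 1 other scaling or unit.

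Cd74, on chromosome 18, encodes the invariant chain that fills the class II groove until peptide is loaded. It had 99.6, 111, 130.2, 376 and 88.7 TPM in EHBR, against 155, 164, 99.6, 65.4 and 129 TPM in SD (0.23, limma adjusted p = 0.736), and -0.13 without EHBR sample 4. Ciita, the master activator of class II genes, on chromosome 10, had 0.0813 to 1.28 TPM in EHBR and 0.218 to 0.992 TPM in SD and was not tested. Its highest value was in EHBR sample 4.

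**Figure D3:**
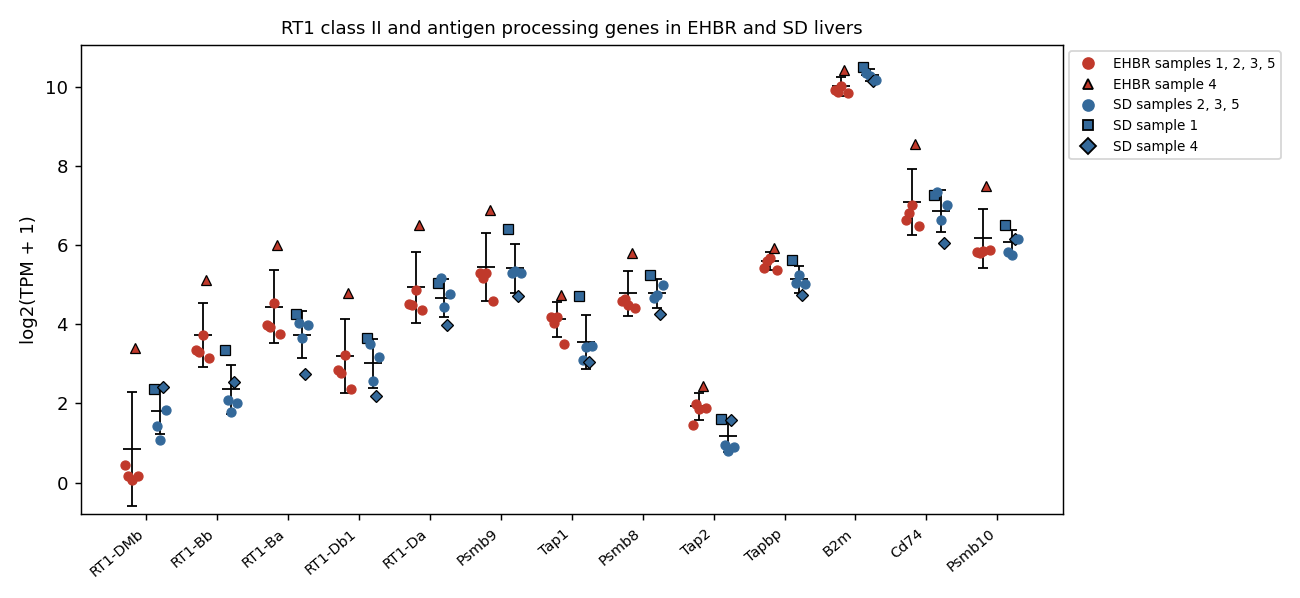
Level of the 5 tested RT1 class II genes and the 8 tested processing genes in each sample, as log2(TPM + 1), with EHBR in red, SD in blue and bars for the mean ± SD of 5 samples. EHBR sample 4, the triangle, is the highest EHBR sample for all 13 genes, with Cd74 at 376 TPM and RT1-Da at 90.6 TPM.

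Wider lists of these pathways, which hold some of the members again, were read beside 5.45% of all tested genes called and 20.9% with an unadjusted p below 0.05. Of 11 genes of class I loading, B2m, Tap1, Tap2 and Tapbp among them, 1 was called and 7 had an unadjusted p below 0.05, 4 higher and 3 lower. The called gene was Erap1, the aminopeptidase that trims peptides in the endoplasmic reticulum. It had 17.9 ± 1.84 TPM in EHBR and 11.9 ± 2.45 TPM in SD (SD, n = 5 each; 0.57, limma adjusted p = 0.0407). Of 11 tested genes of the class II pathway, Cd74 among them, 2 were called higher and 5 had an unadjusted p below 0.05, all higher. In 5 of these 11 the strains did not overlap, against 8.47% of all tested genes. Ctsd, a lysosomal protease, had 240.0 ± 12.6 TPM in EHBR and 160 ± 21.5 TPM in SD (SD, n = 5 each; 0.59, limma adjusted p = 0.0052). Ifi30, the lysosomal thiol reductase, had 92.4 ± 4.25 TPM in EHBR and 72.9 ± 6.89 TPM in SD (SD, n = 5 each; 0.34, limma adjusted p = 0.0435). After median centring none of Erap1, Ctsd and Ifi30 was called (differences of 0.40, 0.42 and 0.17). Ifi30 was called neither in limma on FPKM (0.24, adjusted p = 0.194) nor in voom (0.24, adjusted p = 0.226). Erap1 was not called in limma on FPKM (0.46, adjusted p = 0.0513) but was in voom (0.51, adjusted p = 0.0405). Ctsd was called in both (adjusted p = 0.0423 in FPKM and 0.0459 in voom). The Erap1 call was lost without any one of 7 samples (adjusted p up to 0.115) and the Ifi30 call without any one of 9 (adjusted p up to 0.113). In samples 4 and 5 alone none of the 3 was called (adjusted p = 0.0553, 0.0871 and 0.194), nor was Erap1 in samples 1 to 3 alone (adjusted p = 0.0974). None was called of 7 immunoproteasome and activator genes, Psmb8, Psmb9 and Psmb10 among them, 3 constitutive proteasome subunits, 7 MHC transcription factors and 29 interferon signalling genes, and voom called none of them. At an unadjusted p below 0.05, 3 interferon signalling genes were higher and no gene of the other 3 lists passed. The most abundant gene of each list was Psme1 (-0.14), Psmb6 (-0.16), Nfyc (0.07, negative after median centring) and Bst2 (0.55, adjusted p = 0.145).

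Markers of the cells that make class II were read beside these results. EHBR sample 4 was the highest EHBR sample for 10 of 13 Kupffer cell and macrophage markers, whose summed level was 562.3, 631.7, 802.9, 1057.2 and 546.8 TPM in EHBR and 557.9 to 672.2 TPM in SD. In that sample Csf1r, Cd68 and Marco had 33.9, 45.2 and 117 TPM, while Clec4f, a Kupffer cell lectin, had 97.0 TPM beside 92.6 to 127 TPM in the other EHBR samples. Pan-leukocyte markers summed to 45.8 to 101.8 TPM in EHBR, highest in sample 4, and to 51.1 to 83.3 TPM in SD. Dendritic cell markers summed to 10.6 to 19.2 TPM in EHBR, highest in sample 4, and to 11.7 to 17.1 TPM in SD. B cell markers summed to 3.3 to 4.9 TPM in EHBR and 3.3 to 6.9 TPM in SD. In EHBR sample 4 Ms4a1 and Cd79a were below 0.1 TPM. Cd22, the only B cell marker that passed the filter, was highest in that sample, at 2.21 TPM beside 1.19 to 1.83 TPM in the other EHBR samples. No marker of these 4 lists was at 0 in every sample. None was called between strains in limma or in voom, and 2 macrophage markers had an unadjusted p below 0.05. The excess of EHBR sample 4 was larger for class II than for the macrophage markers. The median ratio of sample 4 to the mean of the other EHBR samples was 3.99 for class II and 1.74 for macrophage markers, and 0.963 over all tested genes. The part of these cells in the class II levels was not tested.

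Between the strains, 4 of 8 sinusoidal endothelial markers were called higher in EHBR, namely Mrc1, Stab2, Kdr and Stab1, against 3.82% of all tested genes. In 4 of the 8 the strains did not overlap, against 8.47%, and 6 had an unadjusted p below 0.05, against 20.9%. Their list summed to 101.0 to 134.6 TPM in EHBR and 66.8 to 88.4 TPM in SD. Mrc1 had 11.8 ± 1.87 TPM in EHBR and 4.37 ± 0.436 TPM in SD (SD, n = 5 each; 1.24, limma adjusted p = 0.000365). Stab2, Kdr and Stab1 had differences of 0.92, 0.66 and 0.73 with limma adjusted p of 0.00673, 0.00916 and 0.0182. After median centring Kdr and Stab1 were not called (adjusted p = 0.0755 and 0.0738 in limma), and Stab1 was not called without EHBR sample 2 or 3 (adjusted p = 0.0541 and 0.0546). In samples 4 and 5 alone Stab2, Kdr and Stab1 were not called (adjusted p = 0.0539, 0.0899 and 0.0828), nor was Stab1 in samples 1 to 3 alone (adjusted p = 0.0854). The most abundant tested gene of the T and NK cell, stellate cell, cholangiocyte and hepatocyte lists, none of which held a called gene in limma or voom and which held 0, 1, 1 and 1 genes with an unadjusted p below 0.05, was Cd4, Col3a1, Epcam and Alb. Hepatocyte markers summed to 159669 to 182800 TPM in EHBR and 139293 to 171177 TPM in SD. Cholangiocyte markers summed to 12.2 to 13.9 TPM in EHBR and 15.2 to 17.5 TPM in SD. The part of the endothelial and cholangiocyte markers in the class I differences was not tested.

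By position in rn6, the called members fell in 3 of 7 groups on chromosome 20. A group ends at a gap of over 0.3 Mb. The group from RT1-N2 to RT1-T24-1, from 3146856 to 3282523, held 5 tested members, 2 lower and 1 higher. The CE group, from 4638663 to 4943564, held 3 tested members, 2 lower and 1 higher. The group of RT1-A1, RT1-A2 and Tapbp, from 5351605 to 5476193, held 3 tested members and 1 lower. The group from RT1-Ha to RT1-Da, from 3875706 to 4132616, held all class II genes with Psmb8, Psmb9, Tap1 and Tap2. None of its 9 tested members was called. In rn6 this group lies between the first and second of the groups above. On GRCr8 the printed class II promoters lie between those of RT1-CE4 and RT1-A2, so this order depends on the build.

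**Figure D4:**
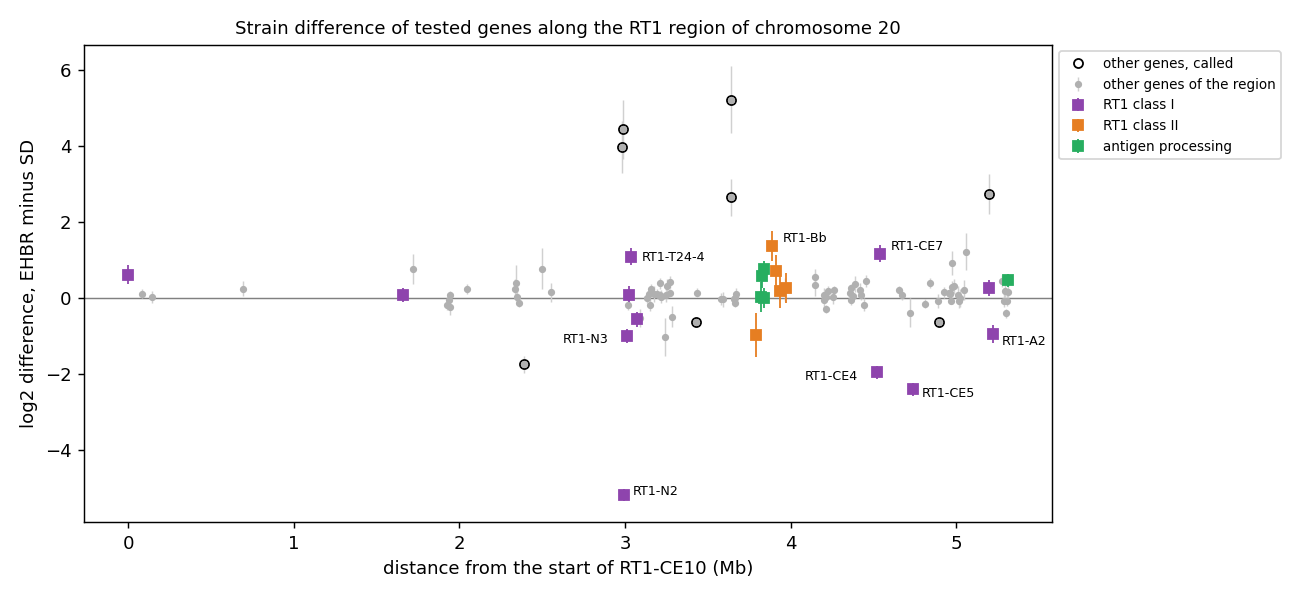
Log2 difference, EHBR minus SD, with its SE, for tested genes on chromosome 20 by distance in Mb from the start of RT1-CE10, with members as coloured squares and other genes as grey points, circled where called. RT1-N2 is the lowest point at -5.18, LOC103690108 the highest at 5.23, and the 5 tested class II genes lie from -0.97 to 1.37.

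The region from the first to the last member, from 154074 to 5476193, holds 310 other genes. Of the 92 tested, 5 were higher and 3 lower in EHBR, against 3.82% and 1.63% of all tested genes. The 5 higher genes carry placeholder names. LOC103690108, on the minus strand from 3791407 to 3794027, has the gene number that RefSeq now gives to RT1-CE2, and the files list it under class Ib antigen presentation. It was not a member by symbol. It had 75.6, 79.2, 77.4, 99.3 and 67.1 TPM in EHBR, against 37.1, 0.174, 0, 0 and 0 TPM in SD. SD sample 1 held 46.5% of the EHBR mean and the other SD samples almost none. Its recovered reads were 970 to 1986 in EHBR samples, 746 in SD sample 1 and 1 to 3 in the other SD samples. The limma difference was 5.23 ± 0.87 (SE, adjusted p = 0.005).

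The other 4 higher genes showed the same kind of step among SD samples. AABR07044362.1, an unprocessed pseudogene just before RT1-N2 on the same strand, had 17.0 to 33.2 TPM in EHBR, against 14.4 TPM in SD sample 1 and 0 in SD samples 2 to 5. AABR07044362.3, which overlaps RT1-N2 on the other strand, had 33.3 to 52.5 TPM in EHBR, against 23.0 TPM in SD sample 1 and 0 in SD samples 2 to 5. It had at most 6 recovered reads in any sample and was not called in FPKM (0.47, adjusted p = 0.106). AABR07044383.1, which overlaps LOC103690108, had 10.3 to 11.9 TPM in EHBR, against 6.11 and 2.51 TPM in SD samples 1 and 4 and at most 0.1 TPM in the other SD samples. AABR07044421.1, a pseudogene within the span of RT1-A1, had 11.8 to 16.4 TPM in EHBR, against 7.26 and 3.30 TPM in SD samples 1 and 4 and at most 0.369 TPM in the other SD samples. Across these 5 genes, SD sample 1 lay at 46.5% to 56.5% of the EHBR mean. In samples 1 to 3 alone, which hold SD sample 1, none of them was called (limma adjusted p of 0.0691 to 0.0992). In samples 4 and 5 alone LOC103690108, AABR07044362.1 and AABR07044362.3 were called, and the limma adjusted p was 0.0513 for AABR07044383.1 and 0.0596 for AABR07044421.1.

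The 3 lower genes of the region showed no such step. Gtf2h4, a subunit of the transcription factor TFIIH, had 6.40 to 8.98 TPM in EHBR and 10.1 to 14.0 TPM in SD (-0.63, limma adjusted p = 0.0155), and was not called without EHBR sample 2 (adjusted p = 0.0509) or in samples 4 and 5 alone (adjusted p = 0.0929). Ddah2, which breaks down methylated arginine, had 0.394 to 0.743 TPM in EHBR and 1.0 to 1.70 TPM in SD (-0.63, limma adjusted p = 0.0135), and was called neither in samples 1 to 3 alone (adjusted p = 0.0739) nor in samples 4 and 5 alone (adjusted p = 0.115). AC120486.9, a processed pseudogene, had 0 to 0.806 TPM in EHBR and 1.86 to 4.79 TPM in SD (-1.74, limma adjusted p = 0.0015).

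**Figure D5:**
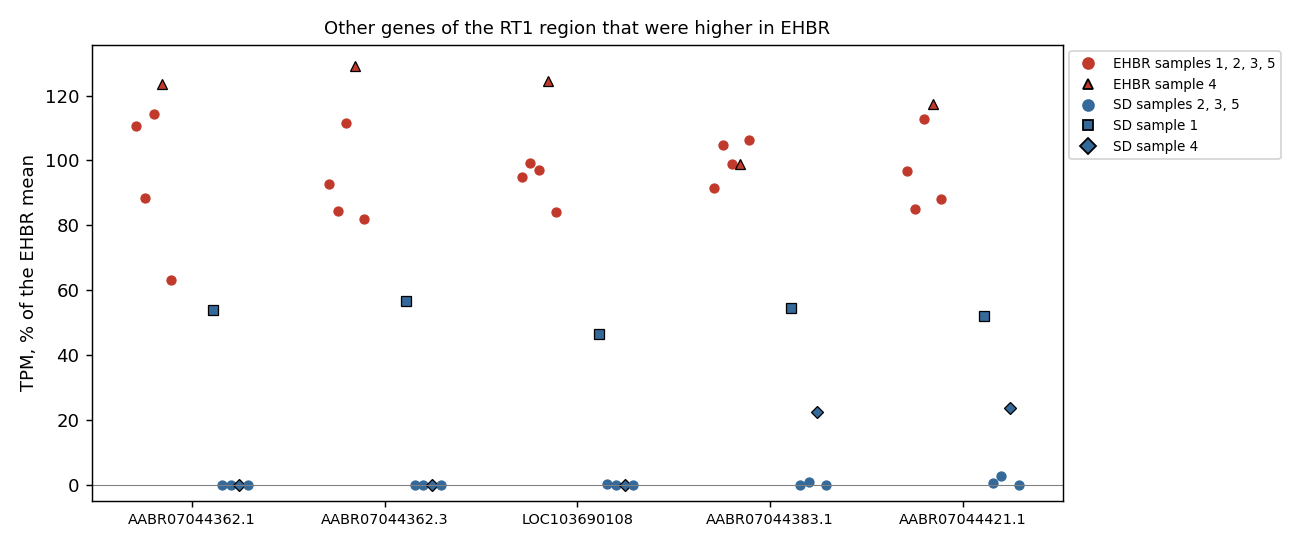
TPM of the 5 other genes of the region that were higher in EHBR, as a percent of the EHBR mean of each gene, with EHBR in red left of SD in blue. SD sample 1, the square, lies at 46.5% to 56.5% for all 5 genes, SD sample 4, the diamond, at 22.4% and 23.7% for 2 of them, and the other SD samples near 0.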

How the data were processed

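Liver poly(A) RNA was extracted with TRIzol and sequenced from 5 EHBR and 5 SD samples, as the labels' protocols state. Per the submitters' processing notes, reads were handled with featureCounts 1.6.3, HISAT2 2.1.0, FastQC 0.11.7 and Trimmomatic 0.38 on the build rn6. Strand settings are not given in the sources used here. The deposited tables hold the authors' TPM, FPKM and upper-quartile FPKM for 32883 genes. TPM was tested as log2(TPM + 1) with limma 3.58.1 in R 4.3.3 (trend, two-sided, strain only, Benjamini-Hochberg across the 11083 genes that reached 1 TPM in 5 or more samples). Read counts, recovered as whole numbers from the steps of the authors' upper-quartile FPKM, were tested with voom, an alternative chosen after seeing the data. The fit was tested on simulated data. The labels do not name separate litters or cultures, so each p measures only how these samples vary, which may be technical, and read floors cover counting error only. Members and lists were chosen with earlier results of these data known. Named genes are every tested member; in each list the called genes, up to 4 by adjusted p, or else its most abundant tested gene; and the region's called genes, up to 8. Tables were prepared in Python 3.11.15 with pandas 2.3.3.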

Additional observations from a re-analysis of the deposited data

Results flagged for a closer look

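In a group of 5 samples, a sample was set apart where its gap to the nearest other sample exceeded 0.71 of the group's range. This held in 20 of 103 strain groups, 12 times for EHBR sample 4 and 7 times for SD sample 1. The cut-off marks about 1 in 20 groups only for independent, normally distributed values. Here many genes were high together in the same sample, and some were picked by their call. The count therefore cannot be set against that share, and the share over all tested genes is not given.

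EHBR sample 4 was the high sample for RT1-DMb (9.65 TPM, other EHBR samples 0.0526 to 0.356), RT1-Bb (33.9 TPM, others 7.95 to 12.2) and RT1-Ba (63.8 TPM, others 12.4 to 22.5). The same held for RT1-Db1 (26.8 TPM, others 4.18 to 8.36), RT1-Da (90.6 TPM, others 19.5 to 28.1) and Cd74 (376 TPM, others 88.7 to 130.2). So it did for Psmb9 (117 TPM, others 22.9 to 38.7), Psmb8 (55.0 TPM, others 20.2 to 23.8), Psmb10 (181 TPM, others 55.5 to 58.0) and B2m (1388 TPM, others 919 to 1044). Outside the members it stood apart for the proteasome subunit Psmb6 (191 TPM, others 143 to 155) and the interferon-induced Bst2 (769 TPM, others 433 to 467).

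SD sample 1 was the high SD sample for RT1-T24-4 (31.0 TPM, others 12.3 to 17.2), RT1-CE7 (18.0 TPM, others 7.5 to 9.79), Psmb9 (83.9 TPM, others 25.3 to 39.7) and Tap1 (25.4 TPM, others 7.32 to 9.96). In the region it stood apart for LOC103690108 (37.1 TPM, others 0 to 0.174), AABR07044362.1 (14.4 TPM, others 0) and AABR07044362.3 (23.0 TPM, others 0). EHBR sample 1 stood apart for RT1-CE5 (2.85 TPM, others 1.76 to 1.94). These gaps are in TPM. In recovered reads of RT1-T24-4, SD sample 5 held 846 beside 746 in SD sample 1.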

How the results depend on the processing

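Over 52 named genes and 24 alternative settings, 1074 of the values kept their direction and their side of the threshold, 78 lost the call, 23 gained it and 65 changed sign. The cause of these changes was not tested. Across all genes, 423 were higher and 181 lower. The split was 219 and 262 in upper-quartile FPKM, 193 and 266 after median centring, and 314 and 290 after quantile normalization. With a term for samples 4 and 5 it was 1506 and 372, and in samples 4 and 5 alone 112 genes were lower. Leaving out 1 sample gave 243 to 439 higher and 135 to 179 lower genes.

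Among class I members, 1 was higher instead of 2 in FPKM, upper-quartile FPKM and voom, 0 in samples 1 to 3 alone, and 2 with any 1 sample left out. Lower members were 3 instead of 5 in samples 4 and 5 alone and 4 to 5 with 1 sample left out. RT1-T24-3 was gained in at least 1 of the fits with 1 sample left out (lowest limma adjusted p = 0.0243). In FPKM and in voom the lower members stayed at 5, but RT1-A2 was lost and RT1-T24-3 gained. With no filter they were 7, where RT1-A2 was lost and RT1-T24-1, RT1-M6-1 and RT1-M6-2 were gained. Class II gained 1 higher member with the term for samples 4 and 5 and 1 lower in samples 1 to 3 alone, and 0 to 1 in either direction with 1 sample left out. Processing genes gained 1 higher with that term (Tap2), 1 lower in samples 1 to 3 alone (B2m), and 0 to 1 higher with 1 sample left out. Other genes of the region were 10 higher and 5 lower with the term, 0 higher in samples 1 to 3 alone, 1 lower in samples 4 and 5 alone or at a mean of at least 5 TPM, and 5 to 6 higher and 2 to 3 lower with 1 sample left out.

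With the replicate number as a block, 639 genes were higher and 222 lower, and 1 class II member, RT1-Bb, was called. Same-numbered samples had correlations of their deviations of 0.0742 to 0.287, and 1 pair was below 0.1, so the numbers were not taken as pairing.

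Signs changed for genes that were not called. In FPKM these were RT1-S3 (-0.017), Psmb9 (-0.057), Psmb8 (0.14), Psmb10 (-0.011) and Nfyc (-0.051), and in voom RT1-S3 (-0.017), Psmb9 (-0.051), Psmb8 (0.15), Psmb10 (-0.011) and Nfyc (-0.052). In upper-quartile FPKM they were RT1-M3-1 (-0.023), RT1-S3 (-0.086), Psmb9 (-0.12), Psmb8 (0.072), Psmb10 (-0.079), Nfyc (-0.11) and Arhgdib (-0.039). After quantile normalization they were RT1-M3-1 (-0.073), RT1-S3 (-0.0033), Psmb9 (-0.079), Nfyc (-0.077) and Arhgdib (-0.10). After median centring they were RT1-M3-1 (-0.084), RT1-S3 (-0.092), Psmb9 (-0.13), Psmb10 (-0.073), Nfyc (-0.10) and Arhgdib (-0.14). In samples 1 to 3 alone they were RT1-S3 (-0.25), RT1-A1 (-0.063), RT1-Db1 (-0.29), RT1-Da (-0.27), Psmb9 (-0.42), Cd74 (-0.27), Psmb10 (-0.20) and Arhgdib (-0.13). In samples 4 and 5 alone they were Psmb8 (0.47) and Irf8 (0.27), and with a pseudocount of 5 Psmb8 (0.0038).

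With 1 sample left out, the differences ranged from -0.072 to 0.18 for RT1-M3-1, -0.10 to 0.25 for RT1-S3, -0.22 to 0.39 for RT1-Db1, -0.12 to 0.42 for RT1-Da, -0.32 to 0.28 for Psmb9, -0.26 to 0.11 for Psmb8, -0.13 to 0.39 for Cd74 and -0.24 to 0.21 for Psmb10. For Arhgdib, C1qa and Irf8 they ranged from -0.11 to 0.14, -0.18 to 0.083 and -0.12 to 0.082. The filter and the low read counts of RT1-DMb, Tap2 and the M-series genes limit what could be called.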

Other observations

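In TPM, SD samples 1 and 4 were the pair of SD samples nearest to the EHBR values for 6 of the 7 called members (85.7%). This held in both directions, with RT1-T24-4 the exception. The same pair was nearest for 2 of the 8 other called genes of the region, where 2 more were tied, and for 15 of the 589 called genes elsewhere (2.55%). RT1-N3 and RT1-A2 entered the count by small margins, at 9.36 and 53.3 TPM in SD sample 1 beside 9.75 and 54.2 TPM in SD sample 5. SD sample 1 held 186 and 1427 recovered reads of these genes among 17.75 M assigned reads. SD sample 5 held 200 and 1429 among 19.58 M. Relative to those totals SD sample 5, not SD sample 1, was the lower for both genes. The count thus depends on the unit. It was chosen after the values were seen and has no test.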
